A study of Mus musculus with 2 samples.

Results

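The 9 genes described here (Mitf, Sox10, Tyr, Tyrp1, Dct, Pmel, Mlana, Slc45a2 and Gpnmb) serve pigment formation and melanocyte identity, and were taken by symbol from the 27635 genes of a single-cell mRNA table; each name had 1 row. They were described over barcodes with at least 500 genes and at most 25% mitochondrial counts (11318 of 12016). Of these, 1385 held at least 5 counts of each of Pmel, Mlana and Dct and were taken as melanoma barcodes. Levels of those 3 genes in the melanoma barcodes therefore follow partly from the choice of barcodes, and are given as a description.

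The tumours were B16F10, a transplantable mouse melanoma line of C57BL/6 origin, grown under the skin and collected 14 days after transplantation. Wild-type and Nr4a-knockout cells were hashtagged and pooled into 1 BD Rhapsody capture of about 20000 cells, with cDNA amplified by TAS-Seq. Cells had been enriched on Percoll and then selected magnetically for CD3, a T cell surface complex, so that tumour cells are here only as carry-over and not as a sample of the tumour. The labels do not tie any of the 6 hashtags to a genotype, and give neither a number of animals nor an age, so each hashtag is a sample of unknown group, cells are not replicates, and no comparison below has a replicate test. The barcodes held 4138 to 892142 counts (median 25960.5), and the median non-zero value was 7, so the counts were treated as reads. Intervals are at 95% and cover at most counting error. Those of levels and log2 ratios treat each count as independent, so they may be too narrow where reads copy 1 molecule. Levels are CPM, the counts of a gene scaled to a fixed total over the summed counts of a set of barcodes. The library captures 3′ ends and is not scaled for gene length, so levels were compared mainly for 1 gene between sets of barcodes. Where levels of different genes stand side by side or are ranked, they are a rough description only.

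Melanocytes make melanin in melanosomes, organelles related to lysosomes. Pigment synthesis starts with tyrosinase (Tyr), which oxidises tyrosine, and the related enzymes Tyrp1 and Dct act on later intermediates of eumelanin. Pmel forms the fibrils on which pigment is laid down, Mlana is a melanosomal protein needed for the maturation of Pmel, and the transporter Slc45a2 supports melanosome pH and tyrosinase activity. Gpnmb is a glycoprotein related to Pmel that is found in melanosomes and in the lysosomes of macrophages. Mitf, the master transcription factor of the lineage, binds E-box motifs such as CATGTG, and Sox10, a neural crest factor, activates Mitf and several pigment genes. Mitf is also used by osteoclasts and macrophages.

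All 9 are protein-coding genes of GENCODE vM21 on GRCm38. Mitf (ENSMUSG00000035158.15) lies on chr6:97807052-98021349, plus strand, and Sox10 (ENSMUSG00000033006.10) on chr15:79154908-79165240, minus strand. Of the enzymes, Tyr (ENSMUSG00000004651.6) lies on chr7:87424771-87493512, minus strand, Tyrp1 (ENSMUSG00000005994.14) on chr4:80834123-80851719, plus strand, and Dct (ENSMUSG00000022129.4) on chr14:118012790-118052244, minus strand. Pmel (ENSMUSG00000025359.10) lies on chr10:128704195-128720238 and Mlana (ENSMUSG00000024806.4) on chr19:29697824-29708634, both on the plus strand. Slc45a2 (ENSMUSG00000022243.10) lies on chr15:11000721-11029233 and Gpnmb (ENSMUSG00000029816.10) on chr6:49036546-49070929, also on the plus strand. Pmel overlaps Cdk2 and Dgka, Dct overlaps the antisense gene 4930435M08Rik, and Mitf overlaps the pseudogene Gm15531, each on the opposite strand. The sources used here do not say whether the counting used strand, so counts of these pairs may not be fully separate.

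Bases upstream of the RefSeq start of the 3 pigment enzyme genes are shown because each holds the E-box CATGTG that Mitf is known to bind, while Tyr, unlike Dct and Tyrp1, was close to absent from the melanoma barcodes. The sequences are RefSeq's for GRCm38.p6, 5′ to 3′ on the gene's strand, with CATGTG or its reverse complement CACATG in capitals. They are Dct at chr14:118052247-118052496 (minus), Tyr at chr7:87493513-87493612 (minus) and Tyrp1 at chr4:80834155-80834184 (plus). For Tyrp1 only 30 bases are given, because the RefSeq start at 80834213 lies 90 bases inside the gene as GENCODE draws it.
Dct: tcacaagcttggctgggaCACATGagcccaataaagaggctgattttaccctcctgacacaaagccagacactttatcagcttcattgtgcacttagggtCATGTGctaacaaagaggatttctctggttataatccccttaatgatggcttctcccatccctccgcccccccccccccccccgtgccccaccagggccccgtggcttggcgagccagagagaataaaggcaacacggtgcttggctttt
Tyr: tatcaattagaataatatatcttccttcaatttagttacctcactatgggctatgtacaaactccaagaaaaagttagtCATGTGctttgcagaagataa
Tyrp1: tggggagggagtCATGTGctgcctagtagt
The motif stood 232 and 150 bases upstream of the RefSeq start in Dct, 21 in Tyr and 46 in Tyrp1, so that in Tyrp1 it lay inside the GENCODE gene. Promoter windows of 300 bases (250 before and 50 after a start) could be matched for 5 of the 9 genes, and for Mitf there were 3, so 7 windows were searched on both strands; Pmel, Mlana, Slc45a2 and Sox10 had no entry. CATGTG was found in the windows of Dct, Tyr and Tyrp1 and not in those of Gpnmb or Mitf, and in 14.2% of all 32851 promoter windows. The longer TCATGTG, which contains CATGTG, was in the same 3 genes and in 3.77% of all windows. The SOX motif ACAAAG was in the windows of Dct, Gpnmb and Tyrp1 (18.7% of all windows). CACGTG (7.15% of all windows), the motif TTCNNNGAA (8.30%) and the core of the interferon-stimulated response element, written as a pair of GAAA runs 2 bases apart (3.44%), were in none of the 7. A match is only a stretch of letters in these windows, and binding was not measured.

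The 1385 melanoma barcodes fell into a large set rich in pigment transcripts and a small set poor in them. With Pmel, Mlana and Dct summed, 1248 barcodes reached at least 5000 CPM (median 23798 CPM, median 168252 counts in all) and are called pigment-rich below; that limit was chosen after the distribution had been seen. The other 137 had a median of 528 CPM, and 132 of them (96.4%) held at least 2 T cell, macrophage, dendritic cell or neutrophil markers at 5 or more counts, against 358 (28.7%) of the pigment-rich barcodes. At least 3 of 5 T cell markers were present in 116 of the 137 and at least 3 of 6 macrophage markers in 59, with 53 holding both. The poor set thus had mixed markers. Only 59 of the 1385 lay between 2500 and 10000 CPM.

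**Figure D1:**
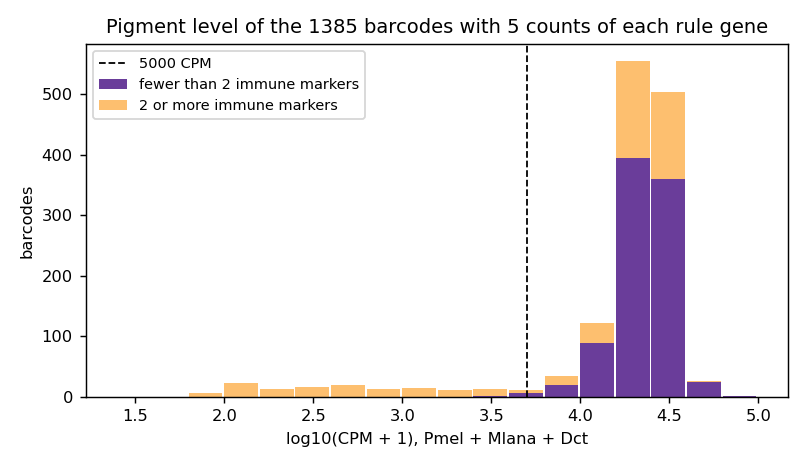
Histogram of the 1385 melanoma barcodes by log10(CPM + 1) of Pmel, Mlana and Dct summed, coloured by whether a barcode holds 2 or more immune markers; the dashed line is 5000 CPM. The 1248 barcodes right of the line form a narrow peak and the 137 to its left are spread out and nearly all hold immune markers.

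The melanoma name held for the pigment-rich set against the immune lists. In it, 0 of 5 T cell and 0 of 6 macrophage markers were present in at least 20% of barcodes, and the T cell list summed to 82.2 CPM, against 4597 CPM in T cell barcodes (6648 barcodes in which 3 or more T cell markers, and at most 2 of each other immune list, were present). The macrophage list summed to 31.7 CPM, against 10535 CPM in the 492 macrophage barcodes. Of 7 dendritic cell markers 1 was present in at least 20% of pigment-rich barcodes, and that list summed to 75.4 CPM. For neutrophils it was 0 of 5 markers and 17.6 CPM. Schwann cells share Sox10 with melanocytes. Of their 5 markers 2 were present in at least 20% of pigment-rich barcodes, and that list summed to 253 CPM. It summed to 94.2 CPM in T cell and 222 CPM in macrophage barcodes. In the poor set all 5 T cell and all 6 macrophage markers passed that level, at 2525 and 3652 CPM summed. At the edge of the rule, 106 barcodes whose lowest of the 3 genes stood at 5 to 7 counts had a median of 510 CPM and immune markers in 81.1%, and 795 barcodes with 2 to 4 counts had 148 CPM and 96.0%. No doublet caller was run, and whether the mixed barcodes held 2 cells or free RNA was not tested.

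Both transcription factors were present in most pigment-rich barcodes. Mitf stood at 665 CPM over the set, with 0, 492 and 1741 CPM at the 5th, 50th and 95th percentile of barcodes, and 83.7% of barcodes held at least 5 counts. Sox10 stood at 309.3 CPM, with 0, 258 and 709 CPM at the same percentiles, and was present in 81.25%. In the 137 pigment-poor barcodes Mitf was at 43.5 CPM and Sox10 at 26.1 CPM, so both were lower there together with the pigment genes.

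Of the pigment enzymes, Dct and Tyrp1 were abundant in the pigment-rich barcodes and Tyr was close to absent. Dct stood at 12041 CPM, with 4904, 11573 and 19247 CPM at the 5th, 50th and 95th percentile, and Tyrp1 at 5363 CPM with 1334, 5101 and 9844 CPM. The ratio of the 95th to the 5th percentile was 3.93 for Dct and 7.38 for Tyrp1, the widest of the 5 genes with a 5th percentile above 0. Tyr had 380 counts in all 1248 barcodes together, or 1.81 CPM (interval 1.64 to 2.01). It was at 0 in 1075 barcodes (86.1%), reached 5 counts in 19 (1.52%, interval 0.919 to 2.37) and never passed 10. Of the 27635 genes, 11956 had a higher CPM in the same barcodes, a rough rank because levels are not scaled for gene length. Barcodes without Tyr were not otherwise poor in pigment transcripts: 780 pigment-rich barcodes held no Tyr count but at least 5 counts of each of the other 8 genes.

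Tyr in the pigment-rich barcodes was also no higher than in immune barcodes. It stood at 5.03 CPM in the 6523 T cell barcodes outside the melanoma rule, 4.71 CPM in 481 such macrophage barcodes and 27.6 CPM in 93 such neutrophil barcodes. Thinned to 10000 counts each, 1.62% of pigment-rich barcodes held a Tyr count, against 4.59% of T cell, 3.96% of macrophage and 17.1% of 41 neutrophil barcodes. The direction is opposite to that of the other 8 genes, and the counts assigned to Tyr therefore did not mark the melanoma barcodes. Whether the counting misses part of the Tyr transcript was not tested.

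The structural and transport genes were present in nearly all pigment-rich barcodes. Pmel stood at 7106 CPM (2297, 6952 and 12665 CPM at the 5th, 50th and 95th percentile) and Mlana at 5105 CPM (1900, 4839 and 8757 CPM). Gpnmb, which the rule did not use, stood at 6916 CPM (2417, 6493 and 11504 CPM) and was present in 99.5% of barcodes. Slc45a2 stood at 758 CPM (0, 644 and 1703 CPM) and was present in 87.8%. Gpnmb and Tyrp1 (98.6%) were thus found in almost every barcode chosen on the 3 other genes. In the pigment-poor barcodes Gpnmb was at 412 CPM, Dct at 236, Pmel and Mlana at 212 each, Tyrp1 at 110, Slc45a2 at 20.9 and Tyr at 4.82.

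**Figure D2:**
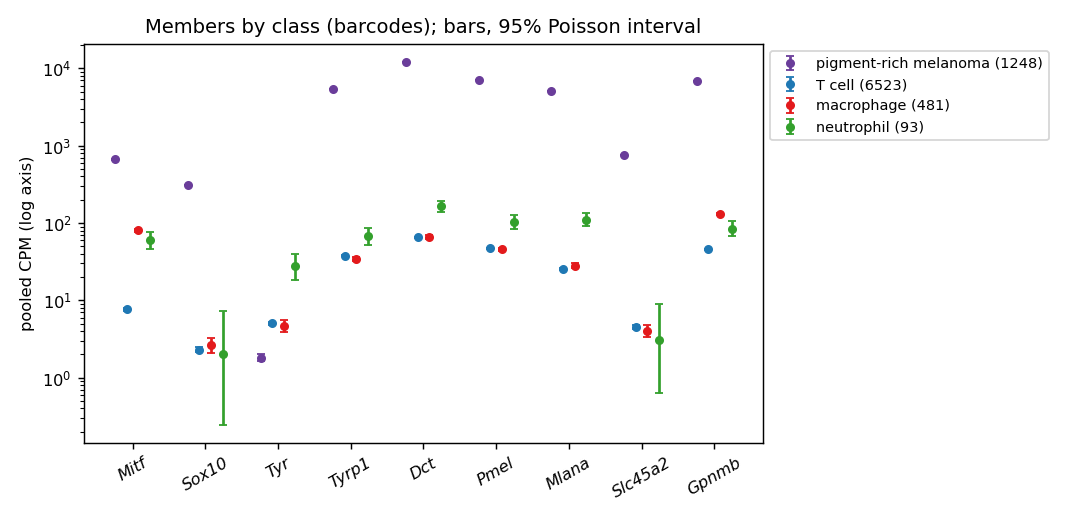
Level of each of the 9 genes, in CPM on a log axis. Points are for 1248 pigment-rich melanoma barcodes, and for T cell, macrophage and neutrophil barcodes outside the melanoma rule. Bars are exact Poisson intervals at 95%, which treat each count as independent. For 8 genes the melanoma point lies above the 3 immune points, and for Tyr it lies below them.

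Other genes of the pigment pathway were largely present too. Of 15 further melanosome and pigment genes, 10 were present in at least 50% of pigment-rich barcodes and 0 in under 5%. Mlph and Myo5a, which move melanosomes along actin, stood at 422 and 321 CPM, the tetraspanin Tspan10 at 397, and Mc1r, the melanocortin receptor, at 151. Slc24a5, an exchanger of pigment organelles, was present in 56.25% (119 CPM), and Oca2, a chloride channel of melanosomes, in 15.3% (16.3 CPM).

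Lineage regulators were more divided. Of 13, 6 were present in at least 50% of pigment-rich barcodes, among them Pax3, an upstream factor of Mitf, at 301.2 CPM, while 5 were present in under 5%. Those 5 included the receptors Kit (0.0811 CPM) and Ednrb (0.138 CPM), on which melanoblasts depend; Ednrb stood at 144 CPM in macrophage barcodes outside the melanoma rule. Of 12 genes linked to dedifferentiated melanoma, 3 were present in at least 50% (Vim, Cd44 and Nes) and 7 in under 5%. The kinase gene Axl stood at 39.6 CPM and the neural crest receptor Ngfr at 2.15 CPM.

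Within the pigment-rich barcodes, 6 of the 9 genes covaried from cell to cell, and both transcription factors had correlations near 0 with them. Correlations are Spearman's over 1031 barcodes thinned to 20000 counts, which left out 217 shallower ones; the barcodes share 1 library and the values are a description. Among Tyrp1, Dct, Pmel, Mlana, Slc45a2 and Gpnmb the 15 pairs had a median of 0.36, from 0.12 for Mlana with Gpnmb to 0.48 for Dct with Pmel. Next came Dct with Slc45a2 at 0.43, Tyrp1 with Pmel at 0.41 and Tyrp1 with Dct at 0.40. Gpnmb was at 0.37 with Pmel, its relative, and at 0.20 with Slc45a2. Pmel, Mlana and Dct also chose the barcodes, which can change correlations that include them. The pairs of the 6 without these genes were Tyrp1 with Slc45a2 (0.39), Tyrp1 with Gpnmb (0.285) and Slc45a2 with Gpnmb (0.20). Between Mitf or Sox10 and those 6 genes, the 12 pairs ran from -0.13 (Mitf with Pmel) to 0.04, and Mitf with Sox10 stood at 0.16. Pairs with Tyr, which had almost no counts, lay between -0.07 and 0.04. Few counts per barcode lower a correlation, and the part of this in the values of Mitf and Sox10 was not tested. Of all 36 pairs, 9 reached 0.3.

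**Figure D3:**
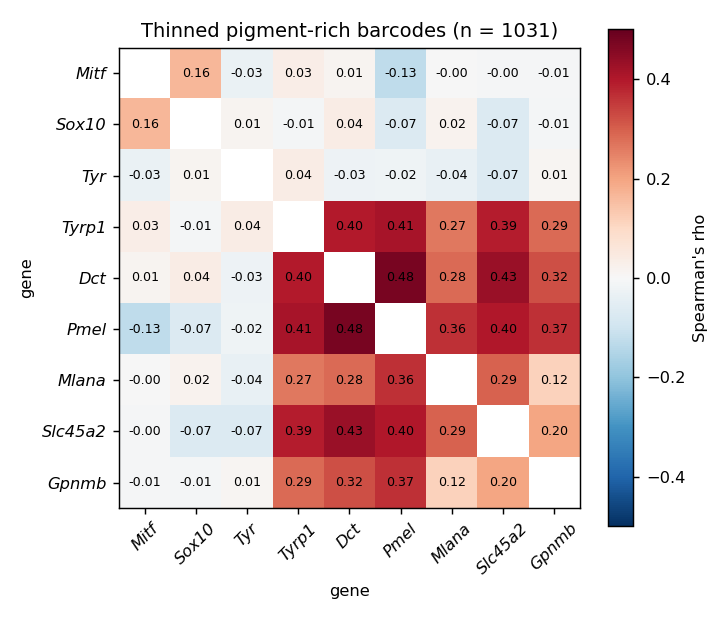
Spearman's rho for each pair of the 9 genes over 1031 pigment-rich barcodes thinned to 20000 counts, as colour and number. The lower right block of 6 pigment genes is red, and the rows of Mitf, Sox10 and Tyr are pale apart from Mitf with Sox10 at 0.16.

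How strongly the transcription factors appeared to follow their pigment genes depended on which barcodes were included. Over all melanoma barcodes of the rule (1151 after thinning), Mitf and Sox10 with the 6 genes had a median of 0.24 (0.15 to 0.28), the 6 genes among themselves 0.54, and 16 of 36 pairs reached 0.3. With the pigment-poor barcodes left out, the first median was -0.0048. It was -0.03 in the 686 thinned barcodes of the rule with fewer than 2 immune markers, where 8 pairs reached 0.3. By hashtag, the median of the 6 genes in pigment-rich barcodes was 0.34 in A0301 (143 barcodes), 0.30 in A0302 (69), 0.44 in A0304 (41), 0.41 in A0306 (293) and 0.32 in A0305, which had the most. The medians of the transcription factors with the 6 genes were -0.04, -0.11, -0.18, 0.03 and -0.01 in the same order. In each of these hashtags, those with at least 30 barcodes, the first median was above the second, but single pairs overlapped: in A0301 Mlana stood at 0.04 with Tyrp1 and -0.03 with Gpnmb, and in A0304 the lowest of the 15 pairs (0.12) was below the highest of the 12 (0.15).

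The genes outside the 9 that were most like each member, among 6506 genes found in at least 20% of the thinned pigment-rich barcodes, were the following. Mitf was closest to Pax3 (0.31), Eps8 (0.31) and Tiparp (0.29), and Sox10 to Smim19 (0.16), Map4k5 (0.16) and Lamp1 (0.15). Neither had a further pigment gene among its 3, and the 9 members could not appear in these lists. Sox10 with Mitf, at 0.165, stood level with Sox10 and Smim19 (0.164). Dct was closest among genes outside the 9 to Ptgds (0.41), Bace2 (0.39) and S100b (0.31), Tyrp1 to Calr (0.30), Bace2 (0.28) and Ccnd1 (0.28), and Slc45a2 to Bace2 (0.32), Ptprm (0.29) and Slc24a5 (0.29). Mlana was closest to Gm3776 (0.32), Atp6v0c (0.31) and Bace2 (0.31), the last the protease that cleaves Pmel during fibril formation. Pmel itself was closest to MT-Cytb (0.42), Gsta2 (0.41) and MT-Atp6 (0.40), and stood at 0.40 with the mitochondrial percentage of a barcode, where Mitf stood at -0.31. Gpnmb was closest to the lysosomal gene Cd68 (0.35), Lgals3 (0.32) and Sparc (0.32). For Tyr the 3 closest, LOC108169061, LOC108169013 and Gm39701, stood at 0.12, 0.12 and 0.11.

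Correlations with summed lists separated the genes less sharply. With the 15 other melanosome genes, Pmel correlated at 0.40, Slc45a2 at 0.36, Tyrp1 and Dct at 0.34 each, Mlana at 0.29, Gpnmb at 0.19, Mitf at 0.18 and Sox10 at 0.08, so that Mitf was level with Gpnmb there. Mitf stood at 0.26 with the other lineage regulators. With 12 lysosome genes, Gpnmb stood at 0.37, Pmel at 0.35 and Dct at 0.33. With the list of dedifferentiated melanoma, Gpnmb stood at 0.20, Pmel at -0.20 and Slc45a2 at -0.22. Gpnmb thus had its highest value of these with the lysosome list, and Pmel with the pigment list.

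Interferon induces antigen processing and guanylate-binding genes in tumour cells, and the pigment genes were compared between the extremes of that response. Barcodes were ranked by the summed CPM of 12 interferon-induced genes (among them Gbp2, Irgm1, Psmb8, Tap1 and Nlrc5) and cut into 3 groups of equal size. Among pigment-rich barcodes the 416 highest were set against the 416 lowest, with 5 counts added to each sum, and a gene was called at a log2 ratio of at least 1 in size. All 12 list genes, which made the ranking, differed by a log2 of 3.09 (Nlrc5) to 7.55 (Gbp2, 626 against 3.26 CPM).

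None of the 9 pigment genes was called, where 7.22% of 12236 genes were (6.23% higher and 0.989% lower in the high group). Mitf stood at 706 CPM in the high and 640 CPM in the low group (log2 0.14), and Sox10 at 291 and 324 CPM (-0.15). The enzymes were nearly level, with Dct at 12150 and 11993 CPM (0.02), Tyrp1 at 5581 and 5396 CPM (0.05) and Tyr at 1.74 and 1.88 CPM (-0.11, interval -0.49 to 0.26). Mlana stood at 5164 and 5144 CPM (0.01) and Pmel at 6825 and 7453 CPM (-0.13). Slc45a2 stood at 720.1 and 824 CPM (-0.19) and Gpnmb at 6542 and 7263 CPM (-0.15). The median log2 over all genes was -0.03.

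The small differences did not all hold their sign within hashtags. In the 4 hashtags with at least 10 barcodes in both groups, the log2 ratio of Mitf ran from 0.00 to 0.18, of Sox10 from -0.23 to 0.00, of Slc45a2 from -0.38 to 0.01 and of Pmel from -0.21 to 0.07. Gpnmb ran from -0.25 to 0.14, Tyrp1 from -0.14 to 0.23, Dct from -0.07 to 0.19 and Mlana from -0.11 to 0.13. Tyr, with few counts, ran from -1.01 to 1.97. Apart from Tyr, no gene in any of the 4 hashtags passed 0.38 in size.

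Split more finely into 6 groups of 208, with median scores from 61.8 to 6702 CPM, no member moved in 1 direction at every step. Pooled Sox10 and Pmel rose from the lowest to the second lowest group and then fell at each step up to the highest. Pooled Sox10 lay between 286 CPM in the highest-scoring group and 335 CPM in the second lowest, and Mitf went through 617, 655, 690, 607, 650 and 758 CPM from the lowest to the highest group. Medians per barcode did not always point the same way: for Sox10 they were 186 CPM in the lowest group and 241 CPM in the highest, with 291 CPM in the second lowest. Pooled Pmel lay between 6746 CPM in the highest-scoring group and 7546 CPM in the second lowest, and Slc45a2 between 673 CPM in the fifth and 876 CPM in the lowest. Dct lay between 11515 and 12304 CPM, Tyrp1 between 5067 and 5678, Mlana between 4884 and 5417 and Gpnmb between 6526 and 7352 CPM. Over the thinned pigment-rich barcodes, the correlation of the 9 genes with the interferon list lay between -0.11 and 0.05. The covariation of the 6 pigment genes was also present at both extremes, with a median of 0.33 in the low group (323 barcodes) and 0.39 in the high group (328).

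**Figure D4:**
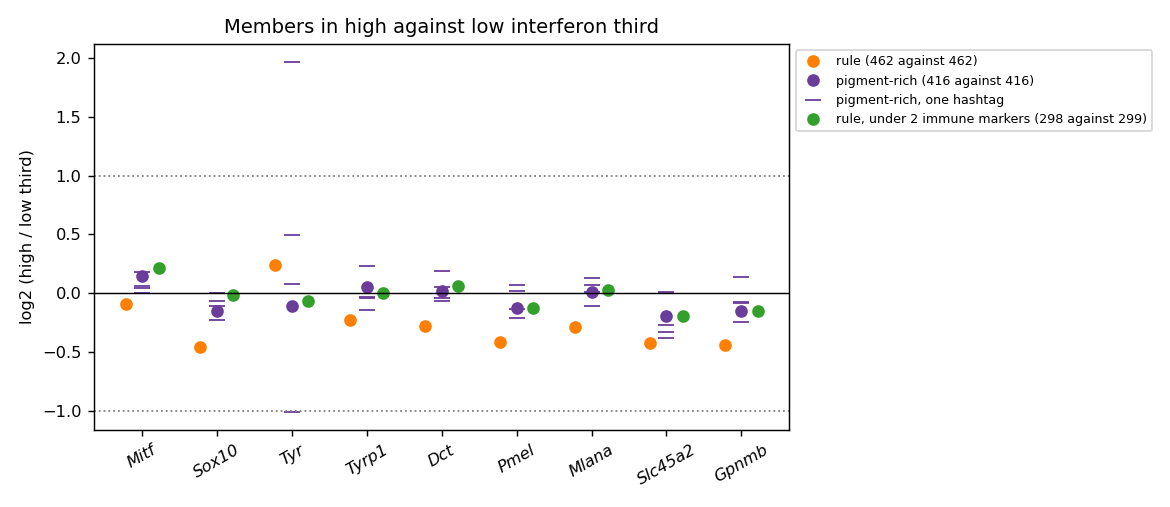
log2 ratio of each gene between the highest and lowest scoring of 3 equal groups by interferon score, for all barcodes of the rule, for pigment-rich barcodes (with dashes for the 4 hashtags) and for barcodes of the rule with under 2 immune markers; dotted lines are the size needed for a call. All pooled points lie between the dotted lines, and for 8 genes the orange point of the whole rule lies below the other two.

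Over all 1385 melanoma barcodes the picture leaned lower, with immune markers moving along. The 462 highest against the 462 lowest gave a log2 of -0.45 for Sox10, -0.44 for Gpnmb, -0.42 for Slc45a2, -0.41 for Pmel, -0.29 for Mlana, -0.28 for Dct, -0.23 for Tyrp1, -0.10 for Mitf and 0.24 for Tyr (interval -0.10 to 0.59). Again 0 of 9 were called, where 13.2% of 12801 genes were (11.5% higher and 1.72% lower). In the high group 27.9% of barcodes held at least 3 T cell markers and 12.8% at least 3 macrophage markers, against 0.433% and 0 in the low group. In the pigment-rich set these shares were 8.65% and 2.16% against 0.481% and 0, and with all barcodes of 2 or more immune markers left out (298 against 299) the 9 genes lay between -0.19 and 0.21, with 5.12% of 11137 genes called (3.97% higher and 1.15% lower). Apart from Mitf, each gene lay nearer to 0 in that set than over all melanoma barcodes. The part of immune RNA in the lower values was not tested further.

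The rest of the pathway behaved likewise in the pigment-rich set. Of the 15 other melanosome genes 0 were called, with a median log2 of -0.10; the most negative were Slc24a5 at -0.94 (84.9 against 163 CPM), Mreg at -0.52, Oca2 at -0.47 and Rab38 at -0.42. Slc24a5 was called lower over all melanoma barcodes, at -1.22. Of 13 lineage regulators, 8 had enough counts and 0 were called (median -0.01). Of 12 genes of dedifferentiated melanoma, 7 had enough counts, with Axl called higher (1.44) and Ngfr lower (-1.07) and a median of -0.01. In barcodes of the rule with fewer than 2 immune markers Axl stood at 1.65 and Ngfr at -0.92, without a call. Axl was also found in macrophage barcodes outside the rule (139 CPM), and the summed macrophage markers stood at 59.3 CPM in the high and 15.8 CPM in the low pigment-rich group; their part in the Axl difference was not tested. Lysosome, cell cycle and glycolysis genes had medians of 0.03, 0.01 and 0.07.

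The interferon score varied widely between the 5 hashtags with at least 30 pigment-rich barcodes, from a median of 406 CPM in A0305 to 4677 CPM in A0304. The high group took 92.9% of the 42 pigment-rich barcodes called for A0304 and 45.3% of 179 for A0301, against 17.3% of 330 for A0305, 20.5% of 78 for A0302 and 20.6% of 326 for A0306; of only 8 for A0303, 7 were in it. A hashtag could be called for 64.2% of the high and 81.7% of the low group, so these shares describe called barcodes.

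Between the 5 hashtags with at least 30 pigment-rich barcodes, the highest level of a gene was 1.08 times the lowest for Dct, 1.14 for Pmel, 1.17 for Gpnmb, 1.25 for Sox10 and Slc45a2 and 1.26 for Mlana and Tyrp1. In the order A0301, A0302, A0304, A0305 and A0306, Mitf stood at 647, 452, 595, 668 and 698 CPM, so that A0302 was lowest and the ratio was 1.55. Sox10 stood at 294, 295, 261, 325 and 321 CPM in the same order. Tyrp1 stood at 6225, 6117, 5362, 4932 and 5304 CPM, highest in A0301 and lowest in A0305. Mlana stood at 5146, 4394, 5546, 5164 and 5255 CPM and was lowest in A0302, while Slc45a2, at 749, 889, 712, 759 and 729 CPM, was highest there. No gene but Tyr (ratio 1.93 on few counts) differed as much between hashtags as Mitf.

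Outside the melanoma barcodes, counts of the pigment genes were low and for most genes kept the proportions they have in melanoma cells. In T cell barcodes outside the rule Dct stood at 65.9 CPM, Pmel at 47.0, Gpnmb at 46.0, Tyrp1 at 38.0, Mlana at 25.3, Mitf at 7.64, Slc45a2 at 4.57 and Sox10 at 2.32. In macrophage barcodes Dct stood at 66.0 CPM, Pmel at 45.6, Tyrp1 at 34.5, Mlana at 28.1, Slc45a2 at 4.06 and Sox10 at 2.65, each near its T cell level. Gpnmb, at 130 CPM, and Mitf, at 80.6 CPM, stood higher there. Neutrophil barcodes held higher levels of most of them (Dct 165, Mlana 110 and Pmel 103 CPM) at a median of 9341 counts. At least 5 Dct counts were found in 15.7% of T cell barcodes (median depth 25853 counts) and 27.0% of macrophage barcodes (50865); thinned to 10000 counts, 37.3% and 37.2% held a Dct count. A few pigment counts in a barcode therefore did not mark a melanoma cell in this capture.

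Mitf and Gpnmb departed from these proportions in macrophage barcodes, and Mitf was also raised in neutrophil barcodes. Each gene's counts were divided by those of Pmel in the same barcodes, and then by the same ratio in the melanoma barcodes, so that RNA of melanoma origin alone would give 1. In T cell barcodes outside the rule, Sox10, Tyrp1, Dct, Mlana, Slc45a2 and Gpnmb lay between 0.75 and 1.13, with Mitf at 1.73. By hashtag, Mitf ran from 1.59 to 4.62 there and Sox10 from 0.98 to 2.76, both highest in A0303. In macrophage barcodes Sox10, Tyrp1, Dct, Mlana and Slc45a2 lay between 0.83 and 1.33, but Mitf stood at 18.8 and Gpnmb at 2.92. Tyr gave 352 and 340, over a melanoma ratio that was itself near 0. In the 93 neutrophil barcodes outside the rule Mitf stood at 6.22, on 59 Mitf and 101 Pmel counts. There Sox10, Tyrp1, Dct, Mlana, Slc45a2 and Gpnmb lay between 0.28 and 1.49, some on very few counts. Pmel, the divisor, is also a gene of the rule, so leaving out barcodes that pass it can raise these ratios. For macrophage barcodes it took Pmel from 5238 to 1326 counts and Mitf only from 2666 to 2343. With the macrophage barcodes that pass the rule included (11 of 492), Mitf stood at 5.42 and Gpnmb at 1.42. With neutrophil barcodes of the rule included, their Mitf stood at 1.53. In the 492 macrophage barcodes 2 of the 9 genes, Mitf and Tyr, passed a ratio of 4. No share over all genes is given beside this.

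**Figure D5:**
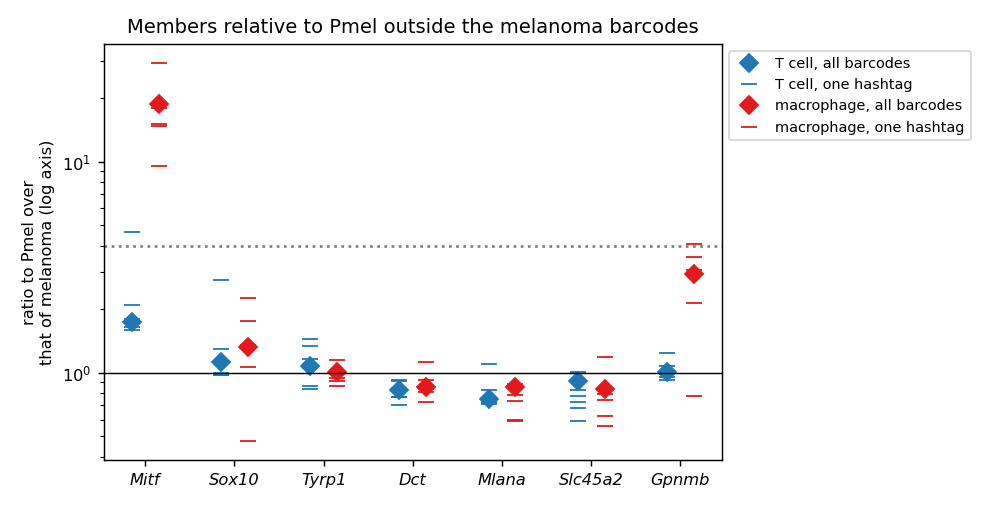
Ratio of each gene to Pmel divided by the same ratio in melanoma barcodes, on a log axis, for T cell and macrophage barcodes outside the rule, with dashes for single hashtags; the solid line is 1, the dotted line 4, and Tyr is not drawn. Mitf in macrophage barcodes stands at 18.8, with each hashtag drawn above the dotted line, while Gpnmb at 2.92 has 1 hashtag below 1.

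Outside the rule, the Mitf ratio of macrophage barcodes was high in each of 5 hashtags and Gpnmb was more uneven. In the 5 hashtags with at least 30 such barcodes, the Mitf ratio ran from 9.48 in A0304 to 29.3 in A0303. It ran from 15.4 to 19.7 when 1 hashtag at a time was left out. The Gpnmb ratio ran from 0.77 in A0304 to 4.09 in A0306. With barcodes of the rule included, the Mitf ratio in these 5 hashtags ran from 2.90 in A0306 to 25.3 in A0303. At least 5 Mitf counts were found in 27.2% of macrophage and 1.46% of T cell barcodes outside the rule, and 27.3% against 4.51% held a count after thinning to 10000. For Gpnmb the thinned shares were 32.8% and 27.4%. Gpnmb was concentrated: the top 25 of 481 macrophage barcodes held 65.4% of its counts, with up to 369 in 1 barcode, against 39.9% for Mitf and 31.1% for Pmel.

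Macrophage barcodes without any Pmel, Mlana or Dct count still held Mitf. Of 33 such barcodes 6 had at least 5 Mitf counts (18.2%, exact interval 6.98 to 35.5), against 6 of 999 such T cell barcodes (0.601%). Among 31 such neutrophil barcodes 2 did (6.45%, interval 0.791 to 21.4). At least 5 Gpnmb counts were found in 3 of the 33 and in 38 of the 999 (3.80%). The same 33 barcodes held Tyrp1 at 42.5 CPM (2 with at least 5 counts), so they were not free of pigment transcripts. For Gpnmb the numbers were too small to separate the classes.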

How the data were processed

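The authors deposited whole-number counts of genes per barcode for the pooled mRNA library and counts of hashtags per barcode for the hashtag library. Per the submitters' processing notes, GRCm38 was the build, and cutadapt 2.10, R 3.5.3 and Bowtie2 (2.3.4.1, 2.4.2) were among the tools, with no role for each. No source used here says whether reads of 1 molecule were collapsed, so a gene was scored as present at 5 counts.

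Removed barcodes had fewer than 500 genes (279) or more than 25% of counts from mitochondrial genes (675). Counts were summed over sets of barcodes and scaled to CPM, and genes with a mean of 100 counts per sum were examined. Shares carry exact binomial intervals and levels exact Poisson intervals. The mRNA and hashtag tables shared 11808 of the 12016 barcodes, and 6157 barcodes were called for 1 of 6 hashtags where the log likelihood rose by at least 3 over background and over any other; the columns A0313 and A0314 were not used. Immune classes needed at least 3 markers of 1 list and at most 2 of each other list. The pooled log2 ratio was tested on simulated data. All 9 member genes are named, with the 3 genes outside the 9 most like each. By the rule, at most 4 genes of a list are named for its largest changes. Other list genes were named as examples of their level, after their values were seen. The members and lists were chosen with earlier results of these data known. Python 3.11.15, numpy 2.4.6, scipy 1.17.1, pandas 2.3.3 and matplotlib 3.10.9 were used.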

Additional observations from a re-analysis of the deposited data

How the results depend on the processing

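No called result changed direction, but some of the small log2 ratios of members between interferon groups, none of them called, changed sign under some alternatives. Mitf ranged from -0.33 to 0.21, Dct from -0.46 to 0.06, Tyrp1 from -0.34 to 0.05, Mlana from -0.42 to 0.03 and Tyr from -0.30 to 0.92. The others stayed below 0 in these settings: Sox10 from -0.63 to -0.01, Pmel from -0.60 to -0.12, Slc45a2 from -0.59 to -0.195 and Gpnmb from -0.63 to -0.15. Of the settings tried for the 4 main results, 56 values stayed within 1.5 times of the value in the first setting and 12 moved. That first setting took all melanoma barcodes of the rule, not the pigment-rich set. The unchanged values include counts of members called, which were 0. Of the log2 ratios of members, 107 moved and 46 stayed, by a separate limit. The number of genes called between interferon groups was 1694 over all melanoma barcodes, 570 without barcodes holding 2 immune markers, 998 with 20 counts of each rule gene, 883 at 5000 CPM (added after seeing the data), 852 after thinning to 20000 counts and 4970 with no minimum on counts. None of the 9 members was called under any of these. Without barcodes holding 2 immune markers, Tyr had too few counts to be called. The number of pairs at 0.3 or more was 16 over all melanoma barcodes, 8 without barcodes holding 2 immune markers, 9 at 5000 CPM, 28 with Pearson's correlation of log2(CPM + 10), and 8 with the rule genes of a pair left out of the gate together with the barcodes holding 2 immune markers, the same number as without those barcodes alone. The number of members with a macrophage ratio over 4 was 2, and from 1 to 2 with a hashtag left out; without A0303 it was 1, with Mitf at 3.82. The number of members differing over 2-fold between hashtags was 0, but 1 (Tyr, on few counts) with 20 counts of each rule gene and 9 without the mitochondrial limit, where A0303 reached the 30 barcodes needed, 22 of them under 5000 CPM. No paired analysis was possible because the samples share no replicate numbers and hashtags of unknown group are not replicates, so the ratios within hashtags are given as values with no test. No share over all genes is given beside the counts of pairs, of macrophage ratios and of differences between hashtags. Hashtag depth and 1 capture limit the rest.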
